A study of Mus musculus with 18 samples.

Results

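Zfp365, the mouse gene for the zinc finger protein that is called ZNF365 in human, is described here over all 18 arrays of a study of p53 activation. The array annotation gives the symbol Zfp365 to 2 probe sets, 1433583_at and 1435615_at, out of 45101 in the table. Neither is assigned to a second gene, and every probe set with the symbol is included, whatever its value. In the GRCm38.p6 gene table Zfp365 (gene ID 216049) lies on the minus strand of chromosome 10, from 67886105 to 67912662, and carries the older names DBZ, Su48, talanin and Znf365.

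The arrays held RNA of the mouse cell line TKO, which the labels call telomere dysfunctional. The groups were p53ER cells after 4 h with 100 nM 4-OHT, p53ER cells after 4 h with vehicle, p53ER cells at 0 h, uninfected cells after 4 h with 4-OHT, uninfected cells after 4 h with vehicle and uninfected cells at 0 h, with 3 arrays each. p53ER is a fusion of p53 to an estrogen receptor that works only once 4-hydroxytamoxifen (4-OHT) is added, so p53 can be switched on in the p53ER cells with 4-OHT. All 6 groups share the TKO background, and the labels name neither the promoter that drives the fusion, nor the number of clones, nor cells infected with a virus lacking it. Whether replicates came from separate cultures is not stated either, and each p-value below therefore weighs a difference against array-to-array spread that may be technical only.

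p53 is a transcription factor that is stabilised by DNA damage and by short or unprotected telomeres, and it switches on genes that stop the cell cycle, start cell death or aid repair. ZNF365 has been linked to the recovery of stalled replication forks and to the upkeep of fragile sites and telomeres, which is also the subject of the study's title. Under the names DBZ and Su48 the same protein was described as a partner of DISC1 and as a centrosomal protein needed for cell division.

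The promoter of Zfp365 is shown because p53 was switched on in 1 group, so that the letters next to the start site can be set beside the signal. The RefSeq promoter window on GRCm38.p6 runs from 250 bases before to 50 bases after the start, at chr10:67912613-67912912 on the minus strand, with the motif TATAAA in capitals.
Zfp365 promoter: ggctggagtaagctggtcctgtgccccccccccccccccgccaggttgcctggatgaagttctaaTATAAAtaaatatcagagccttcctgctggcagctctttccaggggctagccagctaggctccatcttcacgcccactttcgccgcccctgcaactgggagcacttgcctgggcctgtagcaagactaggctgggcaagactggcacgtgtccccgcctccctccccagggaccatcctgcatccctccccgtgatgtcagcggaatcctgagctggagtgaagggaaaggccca
TATAAA begins 185 bases before the start, and 13.6% of the 32851 promoters in the table hold it on either strand. The window held no match to the p53 half-site, a motif of 10 letters, and none to 2 half-sites with a spacer of up to 13 bases. On both strands, 8.36% of all promoters held a half-site and 0.0731% held 2 so spaced. Among the p53 targets named below, half-sites were found in the promoter windows of Mdm2 and Ccng1 and in 1 of 2 windows of Cdkn1a, and none in those of Phlda3 and Sesn2. That window of Cdkn1a also held 2 half-sites so spaced. For Pmaip1 and Trp53inp1 no promoter window was available. These matches are descriptions of the letters in short windows and say nothing about binding there or elsewhere in the gene.

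Before scaling, the 2% trimmed mean signal of the 18 arrays ran from 47.5 to 148, and precision is limited by the number of arrays. The labels were checked first. The Esr1 probe set 1421244_at, which can read the receptor part of the fusion, was at a log2 signal of 6.96 to 10.5 in the 9 p53ER arrays and at 2.99 to 4.85 in the 9 uninfected arrays, with no overlap. In each p53ER group its highest value was in replicate 3, at 9.40 with 4-OHT, 10.5 with vehicle and 9.60 at 0 h. A further Esr1 probe set, 1460591_at, read 4.66 to 5.55 in p53ER arrays and 3.63 to 4.65 in uninfected arrays, barely apart. The last, 1435663_at, overlapped, with 2.75 to 4.71 in p53ER arrays and 2.73 to 4.18 in uninfected arrays. Trp53 itself is not analysed here. Mesenchymal markers, 10 genes such as Col1a1 and Vim, had summed signals of 45626 to 53341 in p53ER cells with 4-OHT and 41626 to 57542 in p53ER cells with vehicle. Per array, the median r with the other 17 was 0.909 to 0.943.

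Zfp365 was higher in p53ER cells with 4-OHT than in any other array of the study, by both of its probe sets. Values are log2 of the scaled signal plus an offset of 4.13, which is 5% of the common trimmed mean. By 1433583_at the 3 arrays of p53ER cells with 4-OHT read 6.36, 6.11 and 6.87 for replicates 1, 2 and 3. The same probe set read 4.54, 3.36 and 5.46 in p53ER cells with vehicle and 5.20, 4.16 and 5.28 in p53ER cells at 0 h. In uninfected cells it read 4.48, 4.08 and 4.91 with 4-OHT, 4.37, 3.90 and 4.36 with vehicle, and 4.48, 4.61 and 4.80 at 0 h. The 3 arrays of p53ER cells with 4-OHT thus stood above the other 15, of which the highest was p53ER with vehicle replicate 3.

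By 1435615_at the pattern was the same at the top and different below it. This probe set read 5.65, 5.92 and 6.63 in p53ER cells with 4-OHT. It read 3.97, 4.72 and 3.20 in p53ER cells with vehicle and 2.95, 3.75 and 4.03 in p53ER cells at 0 h. The uninfected arrays read 4.10, 4.45 and 2.79 with 4-OHT, 4.19, 2.96 and 4.42 with vehicle, and 4.19, 4.95 and 3.73 at 0 h. Again no array of the other 5 groups reached the lowest value of p53ER cells with 4-OHT, and the highest of those 15 was here an uninfected array at 0 h.

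**Figure D1:**
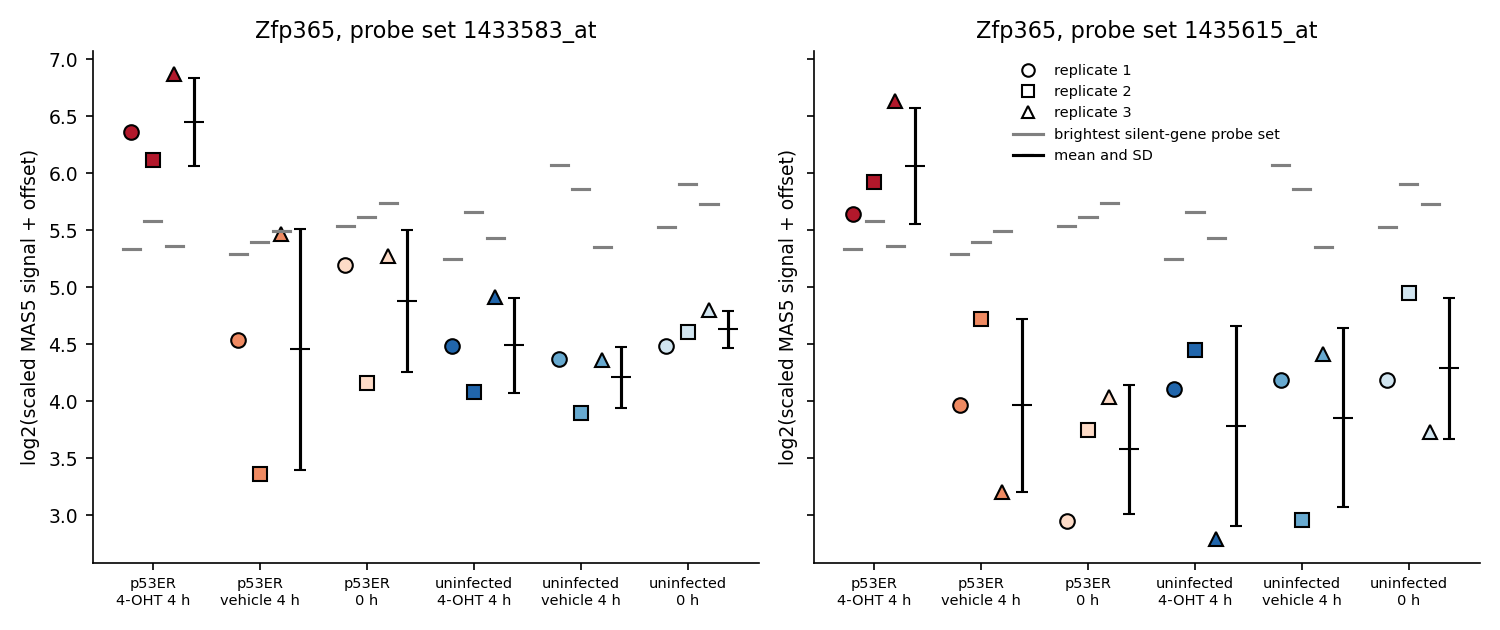
Log2 signal of each Zfp365 probe set (vertical axis) in the 6 groups (horizontal axis), 1 point per array with its replicate number as the symbol; bars show the group mean ± SD (n = 3), and short grey lines the highest of 28 probe sets for genes of other tissues on the same array. The 3 arrays of p53ER cells with 4-OHT lie above all 15 others in both panels and above their grey lines.

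Outside p53ER cells with 4-OHT the signal was low. As a rough gauge of background, 28 probe sets of 17 genes of liver, pancreas, testis, eye and other tissues were read on the same arrays; probe sets differ in how they bind, so this is a description only. Both Zfp365 probe sets were above all 28 in each of the 3 arrays of p53ER cells with 4-OHT. In the other 15 arrays 1433583_at was above 17 to 27 of the 28, and 1435615_at above 10 to 25. The table holds no detection calls, so no lower bound on the fold can be set from them. Folds are given on the log2(signal + offset) scale, which understates the change of a dim probe set.

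The first question was whether Zfp365 differs within p53ER cells between 4-OHT and vehicle. 1433583_at averaged 6.45 ± 0.39 with 4-OHT and 4.45 ± 1.05 with vehicle (SD, n = 3 each), a log2 difference of +2.0 (SE 0.45, 95% interval 1.06 to 2.93, 3.99-fold). 1435615_at averaged 6.07 ± 0.51 with 4-OHT and 3.96 ± 0.76 with vehicle, a difference of +2.10 (SE 0.54, interval 0.97 to 3.24, 4.30-fold). The groups did not overlap by either probe set, with each 4-OHT array higher than each vehicle array, as was so for 5.02% of all 45037 probe sets tested.

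Neither difference passed the threshold of 0.05 (limma, Benjamini-Hochberg adjusted p = 0.524 for 1433583_at and 0.828 for 1435615_at). The test passed 4 probe sets, 0.00888% of all, and by unadjusted p the Zfp365 probe sets ranked at 20 and 51. With the replicate number as a block the adjusted p was 0.0552 for 1433583_at and 0.676 for 1435615_at, with 0.0244% of probe sets passing. In a fit with 1 probe set per gene, the upper 60% of genes and the block together, a setting chosen after the data were seen, 1433583_at passed (limma adjusted p = 0.0381). The exact two-sided permutation test gave p = 0.1 for either probe set, the smallest that 3 against 3 arrays allow.

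Since each 4-OHT array was above each vehicle array in p53ER cells, the 4-OHT minus vehicle difference paired by replicate number was necessarily positive. For 1433583_at it was 1.82, 2.75 and 1.41 in replicates 1, 2 and 3. For 1435615_at it was 1.68, 1.20 and 3.43. The 2 probe sets thus differed in which replicate gave the largest change, but not detectably in their mean change, which was -0.11 apart (1433583_at minus 1435615_at, exact permutation p = 1, smallest possible 0.1).

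In uninfected cells, which lack the fusion, the same addition of 4-OHT gave no such separation. 1433583_at averaged 4.49 ± 0.42 with 4-OHT and 4.21 ± 0.27 with vehicle (SD, n = 3 each), a difference of +0.28 (SE 0.45, interval -0.65 to 1.21). 1435615_at averaged 3.78 ± 0.88 with 4-OHT and 3.85 ± 0.79 with vehicle, a difference of -0.07 (SE 0.54, interval -1.21 to 1.06). The groups overlapped for both probe sets (exact permutation p = 0.4 and 0.8). No probe set on the array passed in this comparison (limma, 0% of 45037; 975 had an unadjusted p under 0.05).

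The difference between these 2 effects of 4-OHT was +1.71 (SE 0.63, interval 0.40 to 3.03) for 1433583_at and +2.18 (SE 0.77, interval 0.57 to 3.78) for 1435615_at. Its unadjusted limma p was 0.0133 and 0.0103, and the adjusted p was 1.00 for both. Of all probe sets 0.00222% passed that test, namely 1 probe set of Mdm2. So the larger effect in p53ER cells was not established over all probe sets tested, although each interval lay above 0.

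Against uninfected cells the size was similar. With 4-OHT, 1433583_at was higher in p53ER than in uninfected cells by +1.96 (SE 0.45), and the difference was 1.88, 2.04 and 1.96 within replicates 1, 2 and 3. 1435615_at was higher by +2.29 (SE 0.54), with 1.54, 1.47 and 3.85 within replicates. All 3 p53ER arrays were above all 3 uninfected arrays for both, as for 6.02% of probe sets. The limma adjusted p was 0.424 and 0.482, and with the replicate block 0.0473 for 1433583_at, which passes, and 0.325 for 1435615_at, with 0.0178% of probe sets passing without the block and 0.0533% with it. These comparisons share the p53ER arrays with 4-OHT, so they do not add up as separate evidence.

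Against p53ER cells at 0 h, Zfp365 with 4-OHT was higher by +1.57 (SE 0.45) for 1433583_at and by +2.49 (SE 0.54) for 1435615_at. The adjusted p was 0.865 and 0.320 (limma; 0.193 and 0.185 with the block), while 0.0155% of probe sets passed, and 0.0533% with the block. Again the groups did not overlap by either probe set, as for 4.54% of probe sets. Within replicate numbers the difference was 1.16, 1.95 and 1.59 for 1433583_at and 2.70, 2.17 and 2.60 for 1435615_at.

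**Figure D2:**
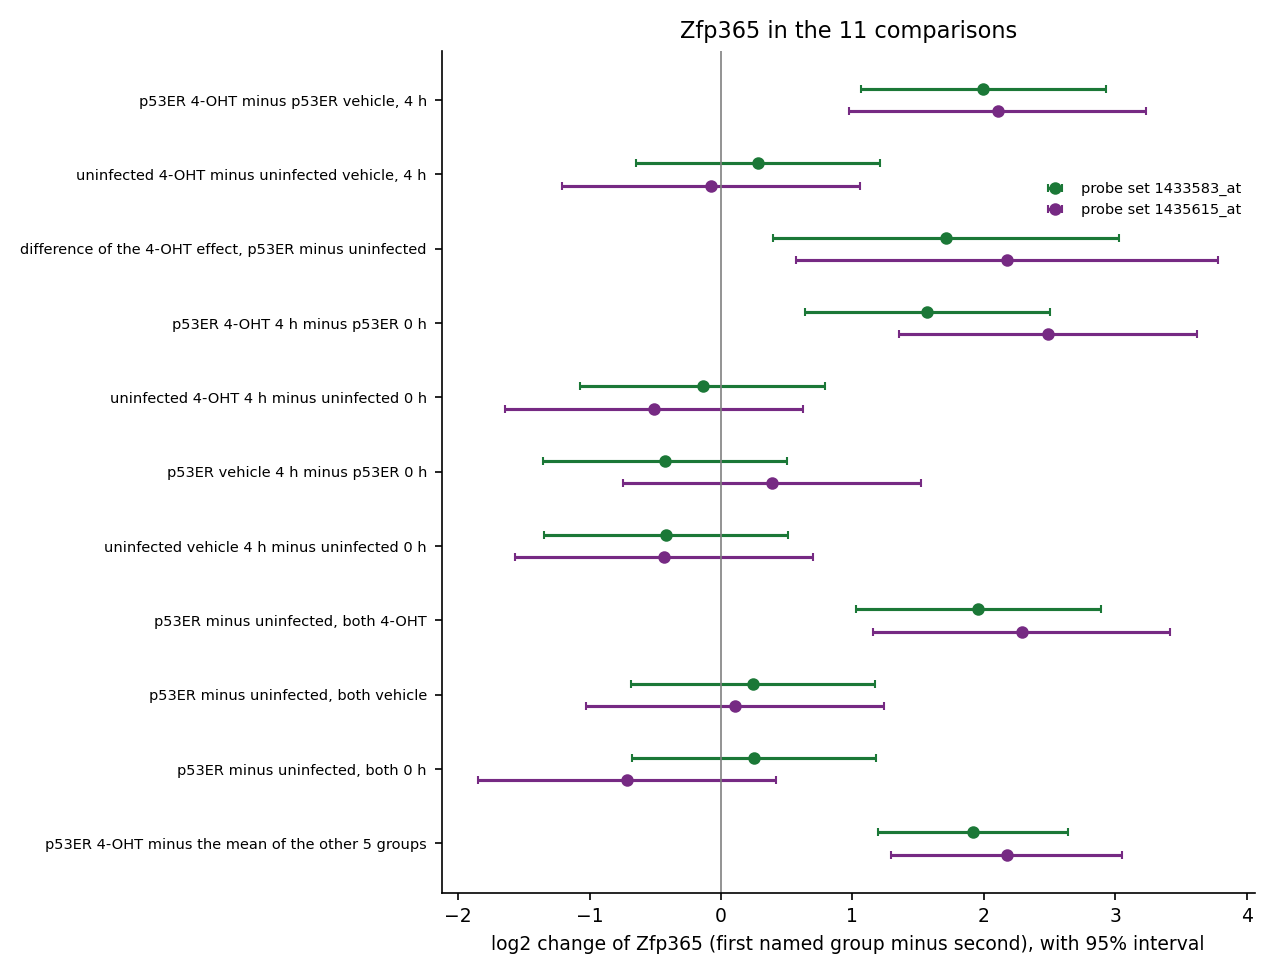
Log2 difference of Zfp365 (horizontal axis, with 95% intervals from limma) in the 11 comparisons (vertical axis, the group named first minus the second), with 1433583_at in green and 1435615_at in purple. The intervals lie above 0 for both probe sets in the 5 comparisons that have p53ER cells with 4-OHT as the first group, and include 0 in the other 6.

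None of the comparisons without p53ER cells with 4-OHT separated Zfp365 by both probe sets. p53ER minus uninfected cells gave +0.24 and +0.11 with vehicle and +0.25 and -0.71 at 0 h, for 1433583_at and 1435615_at in that order, with overlapping groups in all 4 cases. Vehicle at 4 h minus 0 h gave -0.43 and +0.39 in p53ER cells and -0.42 and -0.43 in uninfected cells. In the last of these all 3 vehicle arrays lay below all 3 arrays at 0 h for 1433583_at, which was so for 9.08% of all probe sets. 4-OHT at 4 h minus 0 h in uninfected cells gave -0.14 and -0.51, with overlap. The adjusted p in these comparisons was 0.866 or higher for either probe set (limma), and over the whole array 1 probe set (0.00222%) passed in the last comparison of vehicle with 0 h in uninfected cells and none (0%) in the others.

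Ordered by group mean, 1433583_at ran from p53ER with 4-OHT through p53ER 0 h, uninfected 0 h, uninfected 4-OHT and p53ER vehicle to uninfected vehicle. The gap from the first to the next was 1.57, and the later gaps were 0.25, 0.14, 0.04 and 0.24 (SE 0.45 each). For 1435615_at the order was p53ER with 4-OHT, uninfected 0 h, p53ER vehicle, uninfected vehicle, uninfected 4-OHT and p53ER 0 h. There the top gap was 1.78 and the later ones 0.33, 0.11, 0.07 and 0.20 (SE 0.54 each). No gap below the top group was larger than its SE, and the 2 probe sets put those 5 groups in different orders.

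The widest comparison set p53ER cells with 4-OHT against the mean of the other 5 groups. Here Zfp365 rose by 1433583_at, with a log2 difference of +1.92 (SE 0.35, interval 1.19 to 2.64, 3.77-fold; limma adjusted p = 0.0422), rank 21 of all probe sets. 1435615_at gave +2.18 (SE 0.42, interval 1.30 to 3.05, 4.52-fold) and missed the threshold (adjusted p = 0.0664, rank 31). The test passed 25 probe sets, 0.0555% of all, of which 22, or 0.0488%, were higher; without p53ER 4-OHT replicate 3 it passed 6, and without p53ER 4-OHT replicate 1, p53ER 0 h replicate 1 or uninfected 4-OHT replicate 1 it passed 16.

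All 3 arrays of p53ER cells with 4-OHT were above the other 15 for both probe sets, as was so for 111 probe sets, 0.246% of those tested. The exact permutation p was 0.00123 for each, the smallest that 816 ways of drawing 3 of 18 arrays allow, and 0.00463 when arrays were permuted within replicate numbers, the smallest of 216. Either p is for a single probe set and is not adjusted over the array.

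The call for 1433583_at in this comparison lay near the threshold and depended on single arrays. It held without p53ER 0 h replicate 3 (limma adjusted p = 0.0446), p53ER vehicle replicate 2 (0.0203), p53ER vehicle replicate 3 (0.00886) or uninfected 4-OHT replicate 3 (0.0455). It was lost without any 1 of the other 14 arrays, where the adjusted p ran from 0.0531 to 0.560. The highest of these was without p53ER 4-OHT replicate 3, where the difference was +1.70, and the next were without replicate 1 (0.196) and replicate 2 (0.108) of that group. Over all 18 omissions the difference stayed between +1.70 and +2.08.

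The mean of both probe sets was a value added after the data were seen. Its SD in p53ER cells with vehicle was 0.15, against 1.05 for 1433583_at and 0.76 for 1435615_at. Within groups the 2 probe sets ran in opposite directions (r = -0.38), so averaging cancels part of their spread. Its smaller p-values below are therefore no separate support. The mean was 6.0, 6.02 and 6.75 in p53ER cells with 4-OHT, against 4.25, 4.04 and 4.33 in p53ER cells with vehicle and 4.07, 3.96 and 4.66 at 0 h. In uninfected cells it was 4.29, 4.27 and 3.85 with 4-OHT, 4.28, 3.43 and 4.39 with vehicle, and 4.33, 4.78 and 4.26 at 0 h. Entered as a further row of the fit, it was higher in p53ER cells with 4-OHT than with vehicle by +2.05 (SE 0.37, limma adjusted p = 0.107), which misses the threshold. Against the other 5 groups together it rose by +2.05 (SE 0.29, adjusted p = 0.00269, rank 10). That call held in 24 of 25 other settings and was lost without p53ER 4-OHT replicate 3 (adjusted p = 0.130). The difference of the 4-OHT effect between p53ER and uninfected cells was +1.95 (SE 0.52, unadjusted p = 0.00137, adjusted p = 1.00).

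**Figure D3:**
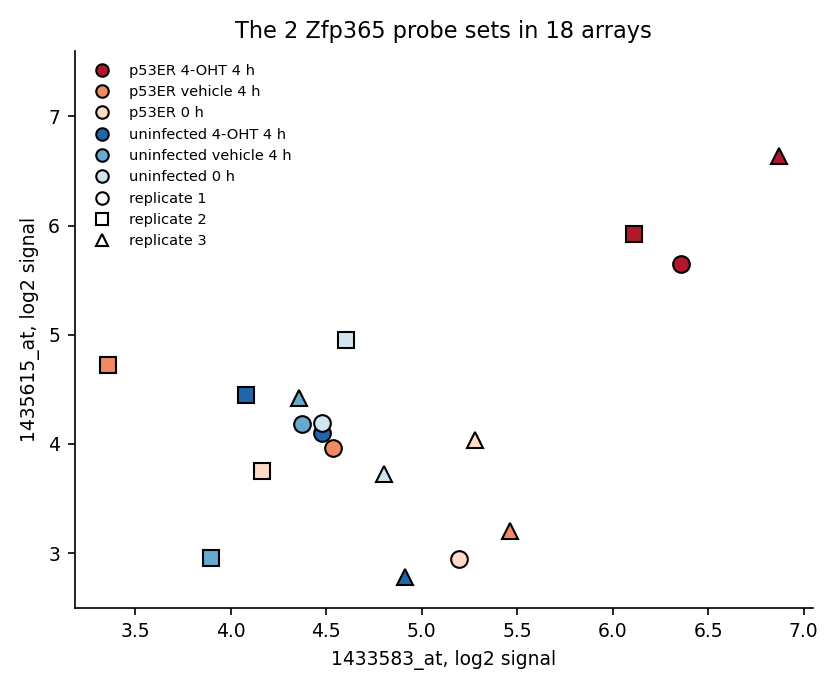
Log2 signal of 1433583_at (horizontal axis) against 1435615_at (vertical axis), 1 point per array, coloured by group with the replicate number as the symbol. The 3 arrays of p53ER cells with 4-OHT lie apart at the upper right, and the other 15 have r = -0.45 (permutation p = 0.0934).

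The 2 probe sets carry the same gene symbol, but their positive correlation rested on the p53ER arrays with 4-OHT. Over all 18 arrays their Pearson r was 0.53 with a Spearman rho of 0.15, and since those 3 arrays stand apart this r mostly gives the distance between clusters. Over the other 15 arrays r was -0.45 and rho -0.46 (permutation p = 0.0934 and 0.0827, two-sided; adjusted over all probe sets 0.723 and 0.696), and without the 2 arrays farthest out in 1433583_at r was -0.21. After subtraction of the group means r was -0.38.

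Replicate number went with the opposite signs. In the 15 arrays of the other groups, 1433583_at averaged 4.61 ± 0.33 in replicate 1, 4.02 ± 0.45 in replicate 2 and 4.96 ± 0.43 in replicate 3 (SD, n = 5 each). 1435615_at averaged 3.88 ± 0.53, 4.17 ± 0.81 and 3.63 ± 0.65 in the same replicates. The first probe set was thus lowest in replicate 2, where the second was highest, and highest in replicate 3, where the second was lowest. What a replicate number stands for is not given in the labels, and its part in the disagreement was not tested.

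Zfp365 was then set beside known p53 targets in the same arrays. Mdm2, the ubiquitin ligase that limits p53, read 10.2, 10.0 and 10.9 by 1427718_a_at in p53ER cells with 4-OHT, against 6.87, 7.27 and 8.15 with vehicle. That is a rise of +2.95 (SE 0.28, limma adjusted p = 5.0e-05). Pmaip1, which encodes the cell death protein Noxa, read 7.14, 7.64 and 8.71 with 4-OHT, against 3.50, 4.69 and 5.14 with vehicle (+3.38, SE 0.50, adjusted p = 0.0230). Ccng1, which encodes cyclin G, rose by +1.77 (SE 0.27, adjusted p = 0.0247) by 1450016_at. By its brightest probe set, 1420827_a_at, Ccng1 differed by +2.11 (SE 0.58, adjusted p = 0.940) and did not pass, nor did 1450017_at (+1.92, SE 0.40, adjusted p = 0.509). The +2.0 and +2.10 of Zfp365 were near the values of Ccng1 and below those of Pmaip1 and of Mdm2 by 1427718_a_at. Mdm2 rose by +2.92 (SE 0.40, adjusted p = 0.0188) by its brightest probe set, 1423605_a_at, while 1457929_at gave -0.02 (SE 0.52). Leaving out any 1 of the 18 arrays kept the call for Mdm2 by 1427718_a_at, 16 of 18 omissions kept it by 1423605_a_at (adjusted p of up to 0.127, without p53ER vehicle replicate 2, and also lost without p53ER 4-OHT replicate 3), 14 of 18 omissions kept that for Pmaip1 and 13 of 18 that for Ccng1. Those for Pmaip1 and Ccng1 were lost without p53ER 4-OHT replicate 2 or 3 or without p53ER vehicle replicate 1 or 2, and Ccng1 also without p53ER 4-OHT replicate 1, with adjusted p of up to 0.328 (limma, without p53ER 4-OHT replicate 3).

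Other textbook targets were like Zfp365 in missing the threshold in the direct comparison. Cdkn1a, the p21 inhibitor of the cell cycle, read 9.77, 10.2 and 11.2 by 1424638_at in p53ER cells with 4-OHT, against 7.34, 7.89 and 9.37 with vehicle. Its difference was +2.19 (SE 0.49, limma adjusted p = 0.719), and it passed with the replicate block (0.00256). Phlda3, a repressor of Akt signalling, differed by +1.44 (SE 0.24, adjusted p = 0.0578, with the block 0.00421). Trp53inp1, which promotes p53-dependent cell death, differed by +2.60 (SE 0.64, adjusted p = 0.752). Sesn2, a sestrin that restrains mTOR signalling, differed by +0.71 (SE 0.34, adjusted p = 1.00) with overlapping groups by 1425139_at. Bax is not analysed here.

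Against the other 5 groups together, these genes fell on either side of Zfp365. Mdm2 rose by +3.15, Pmaip1 by +3.55, Cdkn1a by +2.81, Trp53inp1 by +2.97, Ccng1 by +2.05 and Phlda3 by +1.83, with limma adjusted p from 1.54e-07 for Mdm2 to 0.0280 for Trp53inp1. Sesn2 differed by +0.88 (adjusted p = 0.721). Left without p53ER 4-OHT replicate 3, Cdkn1a (limma adjusted p = 0.117) and Trp53inp1 (0.423) no longer passed. The call for Trp53inp1 held in 7 of 18 omissions. Those for Mdm2, Pmaip1, Phlda3 and, by 1450016_at, Ccng1 held in all 18. The values of Ccng1 here are those of 1450016_at. By its brightest probe set, 1420827_a_at, Ccng1 did not pass (limma adjusted p = 0.138), and it passed in 2 of 18 omissions. In uninfected cells 4-OHT minus vehicle gave +0.03 for Mdm2, -0.38 for Cdkn1a, -0.55 for Pmaip1, -0.18 for Phlda3, -0.13 for Ccng1 and +0.55 for Sesn2, none past the threshold.

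Of 49 listed p53 targets 47 had a probe set, and 40 of the 47 were higher in p53ER cells with 4-OHT than with vehicle. Their median log2 difference was +0.56, against +0.01 over all 18193 genes, so the differences of Zfp365 lay well above the median target. In 15 of the 47 each 4-OHT array was above each vehicle array, as in 4.75% of all genes. Only 2 passed, Mdm2 and Pmaip1 (0.011% of all genes), and 5 with the block (0.033%). In uninfected cells the median of the list was -0.01 and 22 of 47 were higher. Against the other 5 groups 39 were higher with a median of +0.67, in 11 each 4-OHT array was above all 15 others (0.363% of all genes), and 7 rose past the threshold (0.0824%): Mdm2, Phlda3, Pmaip1, Cdkn1a, Trp53inp1, Ddit4l and Eda2r. Genes in lists are read by their brightest probe set, which for Ccng1 is not 1450016_at and did not pass.

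Co-variation with these targets was lower once the p53ER arrays with 4-OHT were left out. All r values here are over arrays that share their scaling, and those over 18 are given as a measure of likeness with no p, since 3 arrays stand apart. 1433583_at had r = 0.84 with Mdm2 (1427718_a_at) over 18 arrays and a rho of 0.34. Over the 15 arrays of the other groups, r was 0.25 (permutation p = 0.357, adjusted 0.869) and rho -0.14 (p = 0.611). Without the 2 arrays farthest out among those 15, r was -0.16. 1435615_at had r = 0.75 and rho 0.36 with Mdm2 over 18 arrays, and r = -0.30 (permutation p = 0.287, adjusted 0.915) and rho -0.10 (p = 0.714) over 15. By 1427718_a_at no relation with Mdm2 was detectable over these 15 arrays. By the brightest Mdm2 probe set, 1423605_a_at, r over 15 was 0.32 with 1433583_at (permutation p = 0.243, adjusted 0.819). With 1435615_at it was -0.48 (permutation p = 0.0688, adjusted 0.912). By 1457929_at the r values were 0.28 and 0.11 in the same order. The listed targets were not level among the 15 arrays. Of the 47 listed targets, 36 were higher in p53ER than in uninfected cells at 0 h (76.6%, against 46% of all genes; median +0.27) and 34 with vehicle (72.3% against 53.4%; median +0.15). None of them passed (limma), and neither did any other probe set in these 2 comparisons. In each, 4 of the targets had an unadjusted limma p under 0.05, against 4.49% of all probe sets at 0 h and 3.41% with vehicle.

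**Figure D4:**
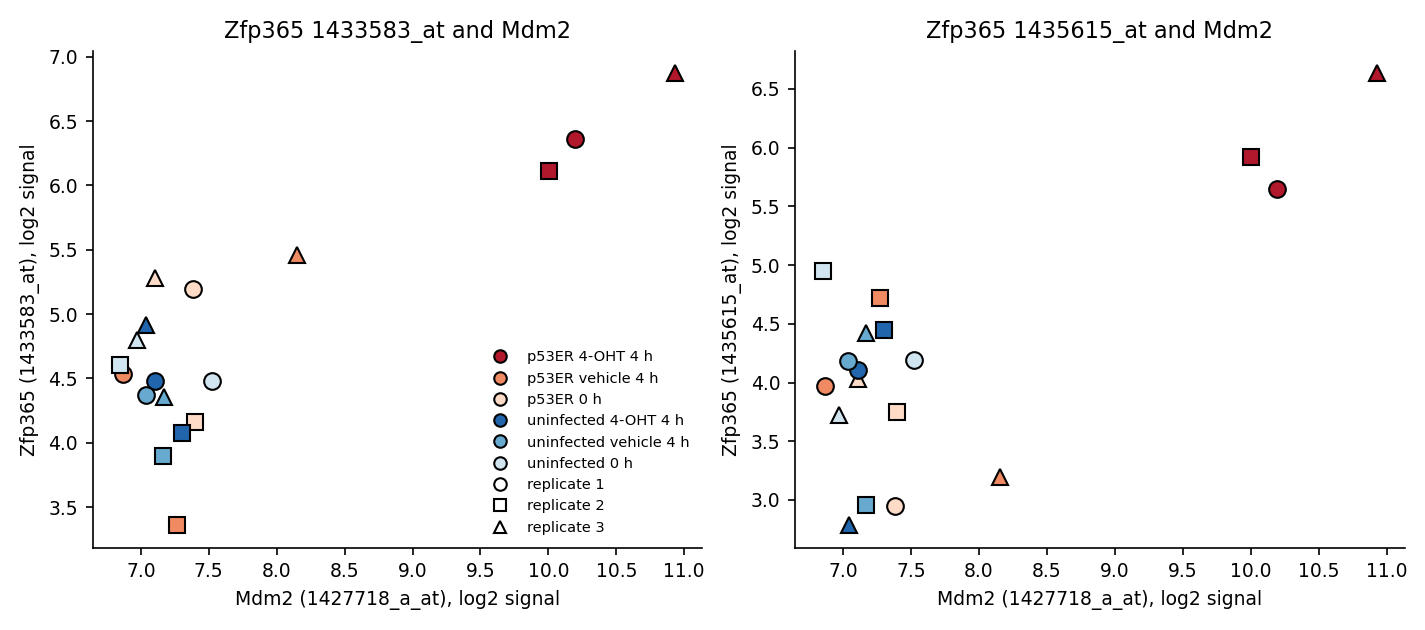
Log2 signal of Mdm2 (1427718_a_at, horizontal axis) against each Zfp365 probe set (vertical axis), 1 point per array, coloured by group with the replicate number as the symbol. The 3 arrays of p53ER cells with 4-OHT lie apart at the upper right in both panels, and the other 15 form 1 cloud at a Mdm2 signal of 8.15 or lower.

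Other targets differed in r over the 15 arrays, and for several the sign differed between the 2 Zfp365 probe sets. That was so for Cdkn1a and for Sesn2 by 1425139_at (0.61 and -0.05, 1433583_at first). It also held for Trp53inp1 (0.44 and -0.36), Ccng1 by 1420827_a_at (0.24 and -0.34) and Phlda3 (0.34 and -0.07). Pmaip1 was negative with both (-0.05 and -0.61). 1433583_at had r = 0.83 with Cdkn1a over 18 arrays and 0.44 over 15 (permutation p = 0.0982, adjusted 0.730; 0.45 without the 2 arrays farthest out). With Sesn2 by 1425139_at its r over 15 arrays was 0.61 (permutation p = 0.0168, adjusted 0.601), with a rho of 0.57 (permutation p = 0.0286). Without the 2 arrays farthest out r was 0.59. By the other Sesn2 probe set, 1451599_at, r over 15 was 0.30 (permutation p = 0.276), and 0.24 with 1435615_at. Over the whole list the highest r of 1433583_at over 15 arrays were those of Zmat3 at 0.74 and Dcxr at 0.64. 1435615_at had r = 0.60 with Cdkn1a over 18 arrays and -0.34 over 15, and -0.61 over 15 with Pmaip1 (permutation p = 0.0157, adjusted 0.912). By the other Cdkn1a probe set, 1421679_a_at, r over 15 was 0.49 with 1433583_at and -0.49 with 1435615_at (permutation p = 0.0642 and 0.0649). Each adjusted p here is over the 45037 probe sets, and none passed.

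Over the whole list of 47 targets, 1433583_at had a median r of 0.56 over 18 arrays, and 29 targets, 61.7%, had r above 0.5, against 3.07% of all genes. For 1435615_at the median was 0.41, and 19 targets, 40.4%, were above 0.5, against 2.3% of all genes. Among the 15 arrays of the other groups the medians were 0.26 and -0.07, with 12.8% and 0% of targets above 0.5 against 5.97% and 3.74% of all genes, and 70.2% and 36.2% of targets positive against 51.1% and 57.6% of all genes. Over deviations from the group means, 25.5% of targets were above 0.5 for 1433583_at against 8.23% of all genes (median 0.30), and 0% for 1435615_at against 3.86% (median 0.06). The targets at the low end over 18 arrays for 1433583_at were the repair gene Ddb2 (-0.44), Triap1 (-0.42) and Tigar (-0.27), which lowers glycolysis.

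**Figure D5:**
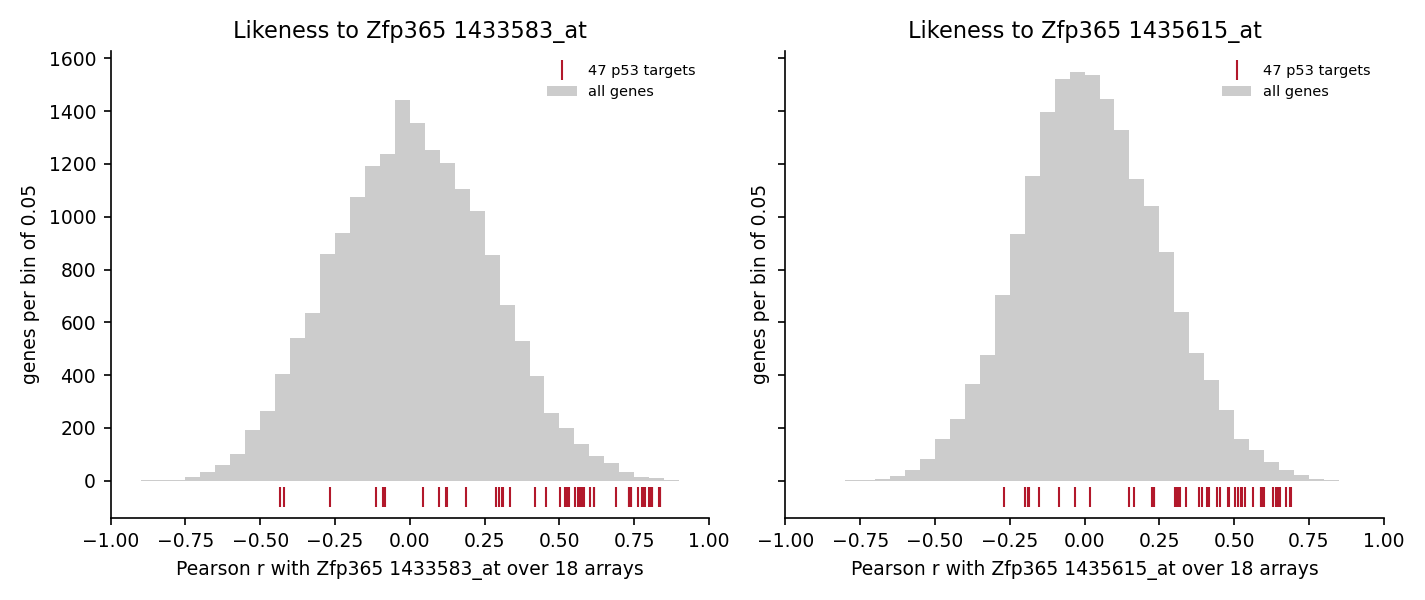
Histogram of Pearson r over 18 arrays between each Zfp365 probe set and all other genes (1 probe set per gene, bins of 0.05), with red ticks for the 47 listed p53 targets. The ticks gather at the right, with a median r of 0.56 for 1433583_at and 0.41 for 1435615_at.

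The genes whose pattern was most like that of 1433583_at over the 18 arrays, among probe sets above the median signal, were Trpv4 (r = 0.86), Tmem19 (0.86), Ccng1 (0.84), Mdm2 (0.84), Zmat3 (0.84), Cdkn1a (0.83), Ddit4l (0.83), Scmh1 (0.83), Rgs12 (0.83) and Anxa8 (0.81). Of these 10, 5 are on the p53 list: Ccng1, Mdm2, Cdkn1a, the RNA-binding zinc finger gene Zmat3 and Ddit4l, which restrains mTOR. That list holds 47 of all 18193 genes with a probe set. In this search a gene entered by its probe set with the highest r, and r over 18 arrays mostly follows the 3 arrays that stand apart. Trpv4 encodes a cation channel, Rgs12 a regulator of G protein signalling, Scmh1 a Polycomb protein and Anxa8 an annexin. After centring on replicate number the 5 highest were Mdm2 (0.90), Tmem19 (0.89), Ccng1 (0.89), Rgs12 (0.88) and Phlda3 (0.88).

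1435615_at was most like a different set of genes, apart from Mdm2. The 10 were Evpl (r = 0.79), Rflnb (0.78), Ankrd24 (0.78), Ifitm10 (0.77), Mvb12b (0.77), Mapkbp1 (0.75), Mdm2 (0.75), Marcksl1 (0.75), Ckap2 (0.75) and Sdc1 (0.74), 1 of them on the p53 list. Evpl encodes envoplakin of the cornified envelope, Ckap2 a protein of the mitotic spindle and Sdc1 the proteoglycan syndecan-1. After centring on replicate number the 5 highest were Phospho2 (0.85), Nlrc5 (0.82), Mvb12b (0.82), Ddit4l (0.81) and Marcksl1 (0.81).

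Replicate 3 of p53ER cells with 4-OHT was high for several of these genes at once. Zfp365 was highest in that array within its group by both probe sets, and so were Mdm2, Cdkn1a, Pmaip1, Phlda3 and Esr1. Without that array the difference from the other 5 groups was +1.70 for 1433583_at and no longer passed (limma adjusted p = 0.560). The pattern was not confined to that array. In p53ER cells with vehicle, replicate 3 was also highest for Mdm2, Cdkn1a, Pmaip1, Esr1 and 1433583_at (5.46), while 1435615_at was lowest there (3.20). In p53ER cells at 0 h, replicate 3 was highest for Esr1, 1433583_at (5.28) and 1435615_at (4.03). What sets replicate 3 apart was not tested.

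The processes in which ZNF365 has been placed were looked at next. No gene of them passed, in a comparison where only 0.00888% of all probe sets did, so short lists could hardly hold a call. Of 45 listed genes of replication stress and repair 42 had a probe set. None passed in p53ER cells with 4-OHT against vehicle (limma, median +0.13, 25 higher). Of these genes 1 had an unadjusted limma p under 0.05, as had 4.09% of all probe sets. The 4 with the largest t were Parp1, which senses DNA breaks (-0.41, SE 0.19), the cohesin subunit Smc1a (+0.71, SE 0.36), the fork remodeller Zranb3 (+0.73, SE 0.45) and the nuclease scaffold Slx4 (+0.29, SE 0.18). Of 19 telomere genes 18 had a probe set, none passed by adjusted or unadjusted p, and the median was -0.07 with 7 higher. Ten1 of the CST complex (-0.48, SE 0.27), the tankyrase gene Tnks2 (+0.54, SE 0.33), Nop10 (-0.26, SE 0.19) and Wrap53 (+0.27, SE 0.23), both of telomerase, had the largest t. Of the reported partners of ZNF365, Ndel1, which acts at the centrosome, differed by +0.25 (SE 0.19) and Parp1 by -0.41, and Disc1 is not analysed here.

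Markers of other cell types were set beside Zfp365, which is known from the nervous system. Of 10 neural markers 4 were higher in p53ER cells with 4-OHT than with vehicle, none passed by adjusted or unadjusted p and the median was -0.02. Over all probe sets 0.00888% passed by adjusted and 4.09% by unadjusted p in that comparison (limma). Sox10 differed by -0.46 (SE 0.30), Mbp by -0.48 (SE 0.39), Rbfox3 by -0.61 (SE 0.62) and Map2 by +0.42 (SE 0.50). Their summed signal was 235 to 318 with 4-OHT and 271 to 348 with vehicle. Endothelial markers, 5 genes, were all higher without passing (median +0.50; Kdr +0.53, SE 0.29), with summed signals of 112 to 167 with 4-OHT and 84.7 to 117 with vehicle, and their part in the result was not tested. The medians of 10 mesenchymal, 7 epithelial and 6 blood markers were -0.01, +0.03 and +0.06, and none passed by adjusted or unadjusted p (limma). In bulk RNA a change in the number of cells and a change in RNA per cell cannot be told apart.

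None of the genes next to Zfp365 on chromosome 10 passed in p53ER cells with 4-OHT against vehicle, where 0.00888% of all probe sets did. On one side Ado, Egr2 and Nrbf2, in order of distance, differed by -0.30 (SE 0.18), +0.11 (SE 0.58) and +0.06 (SE 0.18). On the other side Rtkn2, Arid5b and Cabcoco1 differed by -0.40 (SE 0.53), +0.09 (SE 0.27) and +0.21 (SE 0.33), with a limma adjusted p of 1.00 for all 6. Ado encodes a thiol dioxygenase, Egr2 and Arid5b encode transcription factors, and Nrbf2 acts in autophagy.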

How the data were processed

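RNA of 18 arrays (Affymetrix Mouse430_2) was measured in 6 groups of 3. The deposited values were signal intensities on a linear scale, made by the authors with MAS5 per the submitters' processing notes; version and scaling are not given in the sources used here. Signals were multiplied so that all arrays had the same 2% trimmed mean (82.7), and log2(signal + 4.13) was used. All 45037 non-control probe sets (64 controls left out) were fitted with 6 group means in limma (trended, robust prior; 12 residual degrees of freedom, 10 with the replicate block), with Benjamini-Hochberg adjustment over all and a threshold of 0.05. The annotation gave 34958 probe sets 1 gene, 932 several and 9211 none; 34754 were matched by Entrez ID to GRCm38.p6 names.

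The gene, its lists and the tests were chosen with earlier results of these data known. The named genes are Zfp365, Esr1, 7 p53 targets, the 10 genes most like each probe set and the 5 after centring, 3 neighbours on either side, the reported partners, and up to 4 genes per list by t. Genes in lists were read by their probe set with the highest mean signal.

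As a check of pairing, same-numbered arrays were compared in their deviations from the group mean, which gave r of 0.209 to 0.447 in p53ER cells with 4-OHT and vehicle, 0.271 to 0.467 with 4-OHT and 0 h, and 0.174 to 0.466 between p53ER and uninfected cells with 4-OHT, over 10916 genes (1 probe set each, upper 60%). Over all probe sets 1 of 3 pairs exceeded 0.1 in each of these. The pairing comes from the labels' replicate numbers, judged on the brighter genes, and blocked values stand beside the results they move. Correlations were tested with 1e+05 permutations. The limma fit was also run on simulated data with noise drawn independently for each array. Same-numbered arrays here deviate together over the brighter genes, so that run is not used as support. Tools were limma 3.58.1, statmod 1.5.0 and data.table (1.17.8) in R 4.3.3, and Python 3.11.15 with numpy 2.4.6, scipy 1.17.1, pandas 2.3.3 and matplotlib 3.10.9. Alternatives are given in the closing section.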

Additional observations from a re-analysis of the deposited data

How the results depend on the processing

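Both Zfp365 probe sets kept a positive difference of p53ER cells with 4-OHT from vehicle, from 0 h, from uninfected cells with 4-OHT and from the other 5 groups in every setting run. Limits are the dim signal outside p53ER cells with 4-OHT, 3 arrays a group and replicates of unstated origin. The causes of the changes below were not tested.

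For 1433583_at against the other 5 groups the call was lost with no offset (2.16), quantile normalization (1.87), a variance prior without trend and robustness (1.92) and without 3 arrays found apart in an earlier look at these data, uninfected 0 h replicate 2, p53ER vehicle replicate 1 and p53ER 0 h replicate 3 (1.96), and omitting single arrays gave 1.70 to 2.08. For 1435615_at it passed with array weights (2.10), an offset of 20% (1.52) and, added after the data were seen, the mean of both probe sets (2.05). With the replicate block its limma adjusted p was 0.00247 for 1433583_at and 0.0578 for 1435615_at; there 37 of 45 same-numbered pairs had r above 0.1 over the brighter genes and 18 over all probe sets, so the numbers are not taken to pair these arrays. For 1433583_at the block made the difference of p53ER from uninfected cells with 4-OHT pass (1.96, also with 1 probe set per gene), and with 1 probe set per gene that from vehicle (2.0). For the mean of both probe sets the block also made the difference of p53ER from uninfected cells with 4-OHT pass (adjusted p = 0.0417, without it 0.0534). It changed no other call on the 2 probe sets or their mean. Against vehicle, 4 probe sets passed, and from 0 with only the compared groups in the fit to 11 with the block; against the other 5 groups 25 passed, and from 6 without p53ER 4-OHT replicate 3 to 48 with the block, with 13 without trend and robustness and 16 without p53ER 0 h replicate 1, p53ER 4-OHT replicate 1 or uninfected 4-OHT replicate 1.

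Differences near 0 changed sign. With the mean of both probe sets, p53ER minus uninfected cells at 0 h became -0.23, vehicle minus 0 h in p53ER cells -0.020 and 4-OHT minus vehicle in uninfected cells 0.10 (with array weights 0.22 for 1435615_at). Under quantile normalization 4-OHT minus 0 h in uninfected cells became 0.040 for 1433583_at and 4-OHT minus vehicle for Trp53inp1 -0.029 (-0.0028 with a 20% offset). The difference between Zfp365 probe sets in their change became 0.0047 with a 20% offset.

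Omitting single arrays, 1433583_at gave -0.26 to 0.79 for p53ER minus uninfected with vehicle, -0.93 to 0.12 for vehicle minus 0 h in p53ER cells and -0.35 to 0.067 for 4-OHT minus 0 h in uninfected cells. 1435615_at gave -0.34 to 0.49 for p53ER minus uninfected with vehicle, and in uninfected cells -0.52 to 0.42 for 4-OHT minus vehicle and -0.72 to 0.014 for vehicle minus 0 h. The difference between the probe sets in their change ran from -1.04 to 0.78. In uninfected cells 4-OHT minus vehicle ran from -0.21 to 0.027 for Ccng1 (1420827_a_at), from -0.050 to 0.081 for Mdm2 (1427718_a_at) and from -0.18 to 0.18 for Trp53inp1, and the difference of the 4-OHT effect from -0.18 to 0.59 for Sesn2.

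The median r with the named p53 targets moved for 1433583_at to 0.46 over deviations from group means and 0.34 without the 3 p53ER arrays with 4-OHT. For 1435615_at it became -0.12 and -0.34 in these settings (the value of Cdkn1a in both) and 0.12 without the 2 arrays farthest out, while r with Mdm2 (1423605_a_at) became -0.23 and -0.48.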
